A study of Bos taurus with 8 samples.

Results

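Ceramide and barrier sphingolipid enzymes were followed in bovine rumen epithelium as a set of 10 genes: SPTLC1, SPTLC2, SPTSSB, DEGS1, CERS3 and ELOVL4 of ceramide synthesis, UGCG and ABCA12 of glucosylation and export, and ACER1 and ASAH1 of ceramide breakdown. The array carried 1 probe for each of the 10 under the gene's own name, among 14962 gene names in all, so the brightest probe of a gene was its sole probe. The set was put together with the diet differences of these same arrays known, so its members count as selected on their WP minus control values. Those differences are therefore given as a description with no test.

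Holstein bulls aged 7.4 ± 0.3 months, fitted with a rumen fistula, received 2 high-grain diets in a cross-over, 14 days each and without a wash-out. The control diet contained corn flakes, and in the WP diet wood kraft pulp replaced part of them. The series describes 5 bulls, and arrays of 4 of them, calves 21, 23, 24 and 25, were analysed here, 1 array per calf and diet. Each array measured Cy3-labelled RNA of the whole epithelial sample, so that fewer cells of a type and less RNA per cell cannot be told apart. Which diet each animal received first was not analysed here.

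A single slide carried the 8 arrays, with between 9314 and 11917 probes per array well above background by the scanner software's flag. The WP array of calf 24 stood apart: the E1A control spots read 40.7 on it and 1.36 to 1.97 on the others, and its lowest signal well above background was 16.9 against 4.93 to 8.0. Each slide row held 2 arrays of each diet and 1 of each calf. All 10 basal keratinocyte markers passed the filter on dim probes, with a summed level of 199 to 304 times the array's 75th percentile signal on the control diet and 209 to 352 on WP. Of 16 differentiation markers, KRT1, KRT13 and FLG had no matched probe, and LORICRIN, DSC1 and KLK7 were above background on none of the 8 arrays.

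Ceramides are the lipids from which stratified epithelia build much of their permeability barrier. Serine palmitoyltransferase starts their synthesis by joining serine to a fatty acid; a ceramide synthase then adds a second fatty acid, and a desaturase completes the molecule. In mammalian epidermis, very long fatty acids made by elongases enter barrier ceramides, which are glucosylated, packed into lamellar granules by a transporter and released between the outermost cells. Ceramidases cut ceramide back to sphingosine and a fatty acid.

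The probes below are shown because detection differed among them: SPTSSB and ASAH1 were bright on all 8 arrays, ACER1 was dim and the other 3 were at or near background. ACER1 is given whole and the others by the 30 bases at their 3′ end. Letters are lower case, with capitals marking an ATTAAA or AATAAA hexamer, motifs of the polyadenylation signal family, searched on the printed strand alone.
ACER1: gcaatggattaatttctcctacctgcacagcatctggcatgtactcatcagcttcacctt
ELOVL4: tcatatgtggaaatacacctacctcttctg
SPTSSB: ggcatgccaaattaccttgcatgtttgtta
CERS3: ggaagctgagaccacagggactagtaaagc
ABCA12: cctatctgcttaacactgtgagcatgctag
ASAH1: cctggctctgactactATTAAAgtcaatac
On UMD 3.1, the build of the array design, the ACER1 probe lies on chr7:19352018-19352541. It spans 524 bases of genome for its 60 bases of sequence, so it bridges a gap in the genome, as did 15.9% of all probes with a position. SPTSSB is probed at chr1:106880284-106880343, ASAH1 at chr27:18309188-18309247, CERS3 at chr21:6420497-6420556, ELOVL4 at chr9:19842939-19842998 and ABCA12 at chr2:103520024-103520083. The design writes the ELOVL4 and ABCA12 positions from the higher to the lower coordinate, and the other 4 from lower to higher. The hexamer stood in the ASAH1 probe and in none of the other 9 member probes, and in 12.6% of all probes. GC content was 45.0% for ACER1 and CERS3, the median of all probes, and at most 38.3% for the other 8. Exon or UTR positions of the probes were not analysed here.

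Of the serine palmitoyltransferase subunits, the 3 members SPTSSB, SPTLC2 and SPTLC1 had a lower mean on WP, with the widest difference in SPTSSB, whereas SPTSSA, a further subunit outside the set, had a mean difference of -0.0072. SPTSSB encodes a small activating subunit that, in the human enzyme, lets the complex take a longer fatty acid. Its processed signal, a background-corrected brightness, was 585, 833, 561 and 601 on the control diet and 166, 324, 242 and 430 on WP in calves 21, 23, 24 and 25. Every WP signal lay below every control signal. After each array was scaled to its own 75th percentile the groups touched, the highest WP level (0.88, calf 25) passing the lowest control level (0.86, calf 21). The WP minus control difference on the log2 scale was -1.12, -0.85, -1.23 and -0.63 in the 4 calves, with a mean of -0.96 ± 0.27 (SD, n = 4), so the control signal was 1.94-fold the WP signal. SPTSSB was negative in 4 of 4 calves, as were 5.39% of the 10236 probes tested. Since this contrast chose the gene, nothing is read from that share.

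SPTLC2, the catalytic subunit, gave signals of 1144, 876, 809 and 699 on the control diet and 553, 587, 585 and 655 on WP. The smallest control signal stood above the largest WP signal, and scaled levels overlapped by 0.022 log2. Its within-calf differences were -0.35, -0.064, -0.48 and -0.24, with a mean of -0.29 ± 0.18 (SD, n = 4). SPTLC1, the partner that the catalytic subunit needs, gave 322, 416, 307 and 230 on the control diet and 175, 237, 286 and 267 on WP. Signals of the 2 diets overlapped, and the scaled difference was -0.19, -0.29 and -0.12 in calves 21, 23 and 24 and 0.067 in calf 25, with a mean of -0.13 ± 0.15 (SD, n = 4). Averaged over these 3 subunits, the difference lay between -0.61 and -0.27 in the 4 calves; with SPTSSA included it lay between -0.51 and -0.12. The median of all tested probes was 0.09, and relative to it SPTSSB stood at -1.05, SPTLC2 at -0.37 and SPTLC1 at -0.22.

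**Figure D1:**
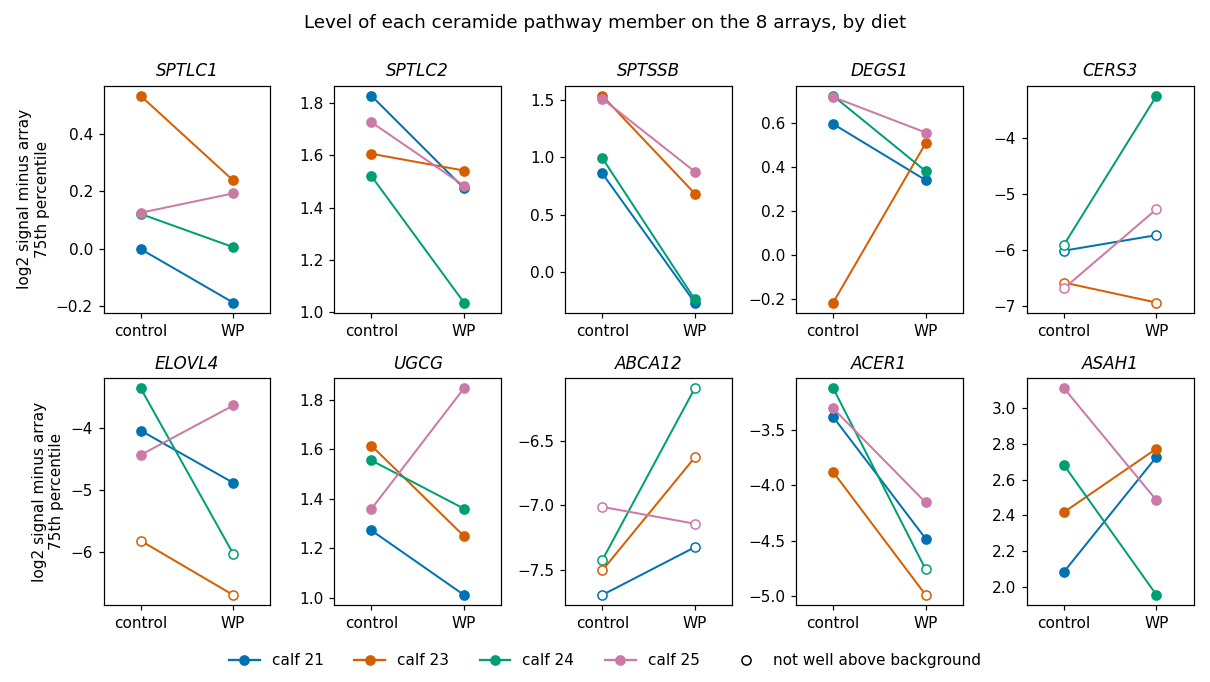
Each panel plots 1 member, with diet on the x axis, log2 processed signal minus the array's 75th percentile on the y axis (a different range in each panel) and a line for each of the 4 calves. Open circles are arrays on which the probe was not well above background. SPTSSB and ACER1 slope down in all 4 calves, ASAH1 slopes up in calves 21 and 23 and down in calves 24 and 25, and ABCA12 has open circles throughout.

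DEGS1, the desaturase of the last step to ceramide, showed no shared direction. Its signal was 487, 247, 465 and 347 on the control diet and 252, 286, 371 and 344 on WP. The difference was -0.26, -0.34 and -0.16 in calves 21, 24 and 25 and 0.73 in calf 23, whose control array was the lowest of all 8 after scaling. The mean of -0.0087 ± 0.50 (SD, n = 4) became -0.25 without calf 23. Within slide row 1 it was -0.30 and within row 2 0.28. Row 1 held the WP arrays of calves 21 and 23 and the control arrays of calves 24 and 25, and row 2 the reverse. A difference within a row therefore compares different calves, without the pairing.

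CERS3 and ELOVL4, which in epidermis make the very long ceramides of the barrier and the fatty acids for them, were at the edge of detection. CERS3 was well above background on 1 array, the WP array of calf 24 with the raised control spots, at 30.2. It read 2.07 to 5.03 on the control arrays and 1.65 to 6.10 on the other WP arrays. The figures plot these readings, but no difference between the diets is read from them, since the other 7 arrays hold no level. ELOVL4 read 19.5, 5.08, 27.4 and 9.73 on the control diet and 6.71, 1.94, 4.35 and 18.8 on WP, above background on 3 and 2 arrays. Its difference was -0.84, -0.88 and -2.67 in calves 21, 23 and 24 and 0.80 in calf 25, with a mean of -0.90 ± 1.42 (SD, n = 4), smaller than its spread. In calves 21 and 25, the only 2 with both arrays above background, the mean was -0.022. The mean was -1.89 within slide row 1 and 0.10 within row 2, again between different calves.

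UGCG, which makes glucosylceramide, the storage form of barrier ceramides, was bright on all 8 arrays and overlapped between the diets. It gave 778, 880, 828 and 541 on the control diet and 401, 479, 731 and 842 on WP. The difference was -0.26, -0.37 and -0.20 in calves 21, 23 and 24 and 0.49 in calf 25, with a mean of -0.083 ± 0.39 (SD, n = 4). It was -0.33 within slide row 1, 0.16 within row 2 and 0.011 without calf 23. ABCA12, the transporter that loads lamellar granules in epidermis, was well above background on 0 of 8 arrays, with signals of 1.24 to 4.17. The figures plot its readings, but no level or difference is read from them.

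The 2 ceramidases had unlike values. ACER1, an alkaline ceramidase of differentiating epidermis in mouse and human, read 30.9, 19.5, 32.3 and 21.3 on the control diet and 8.90, 6.34, 10.5 and 13.1 on WP. Every WP array lay below every control array, which held for 1.19% of tested probes, while the opposite held for 3.65%; ACER1 was chosen on this contrast and nothing is read from the share. The within-calf differences were -1.10, -1.11, -1.64 and -0.85, with a mean of -1.17 ± 0.33 (SD, n = 4). Detection of the probe reached all 4 control arrays but only the WP arrays of calves 21 and 25, so the control arrays by themselves carried it past the filter on dim probes. With the other 2 WP arrays set at their detection limit the mean difference was -0.92, a 1.89-fold control signal. Over calves 21 and 25 the mean was -0.97, and with normexp background correction, which adds an offset of 50 to every signal, it was -0.071. Its size thus varied with the background correction.

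ASAH1, the acid ceramidase of lysosomes, was among the members with a strong signal and had no shared direction. It gave 1369, 1538, 1807 and 1821 on the control diet and 1317, 1376, 1107 and 1310 on WP. Calves 21 and 23 had scaled differences of 0.64 and 0.35, whereas calves 24 and 25 had -0.72 and -0.62, with a mean of -0.088 ± 0.69 (SD, n = 4). The sign followed the slide row: calves 21 and 23 had their WP array in row 1, and calves 24 and 25 in row 2. ASAH1 was higher in row 1 than in row 2, at mean levels of 2.82 and 2.24, a log2 difference of 0.59 ± 0.11 (SE, n = 8 arrays; limma, unadjusted p = 0.00613, adjusted p = 0.298), and did not pass the threshold. This row difference rests on the same values as the split by calf, since each calf had its 2 arrays in different rows. It cannot be told apart from a diet difference of opposite sign in calves 21 and 23 and calves 24 and 25. The feeding period of each array was not analysed here, and whether period followed the slide row was not tested. Between rows 12.9% of tested probes had an unadjusted p under 0.05 and 0 passed after adjustment. The basal keratinocyte markers split by calf in the same way, with medians of 0.84, 0.44, -0.18 and -0.55 in calves 21, 23, 24 and 25, and KRT5 gave 0.60, 0.51, -0.58 and -0.63. Their part in the ASAH1 values was not tested.

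**Figure D2:**
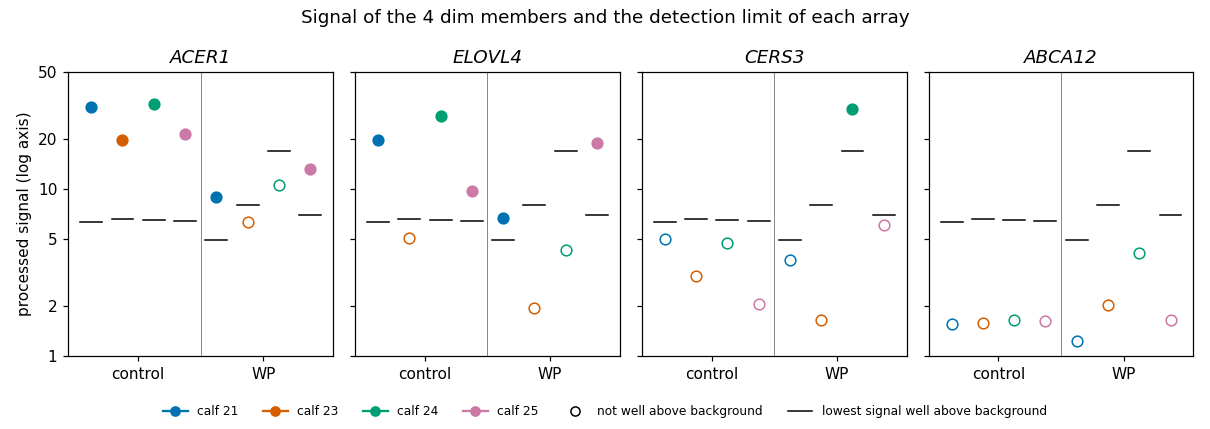
Processed signal of the 4 dim members is plotted on a log axis for each control and WP array, with a horizontal bar at the lowest signal that was well above background on that array. ACER1 stands above the bar on all 4 control arrays and on 2 WP arrays, CERS3 on 1 WP array, and ABCA12 on none.

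Synthesis and breakdown steps differed by less than the spread between calves. The mean difference of the 5 tested synthesis members was -0.55, -0.27, -0.97 and -0.034 in calves 21, 23, 24 and 25, and that of ACER1 and ASAH1 was -0.23, -0.38, -1.18 and -0.74. Synthesis minus breakdown was therefore -0.32, 0.11, 0.21 and 0.70, with a mean of 0.17 ± 0.42 (SD, n = 4). These means include the dim ACER1 and ELOVL4; with the members above background on all 8 arrays, the mean of SPTLC1, SPTLC2, SPTSSB and DEGS1 minus ASAH1 was -0.26 ± 0.68 (SD, n = 4), of opposite sign and also within the spread. In calves 21 and 23 the breakdown mean held 2 opposite values, ACER1 low and ASAH1 high on WP. ASAH1 minus ACER1 ran from 0.22 to 1.74 and was positive in 4 of 4 calves. ACER1 is dim and was chosen on its WP minus control values, so nothing is read from that count. All 8 tested members had a negative mean, with a median of -0.21 beside 0.09 for all tested probes, of which 35.6% were negative. The set was drawn with this contrast in view, and the count describes it only. Without calf 24, whose WP array stood apart, the mean difference was -0.87 for SPTSSB, -0.22 for SPTLC2 and -1.02 for ACER1, and synthesis minus breakdown was 0.16.

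**Figure D3:**
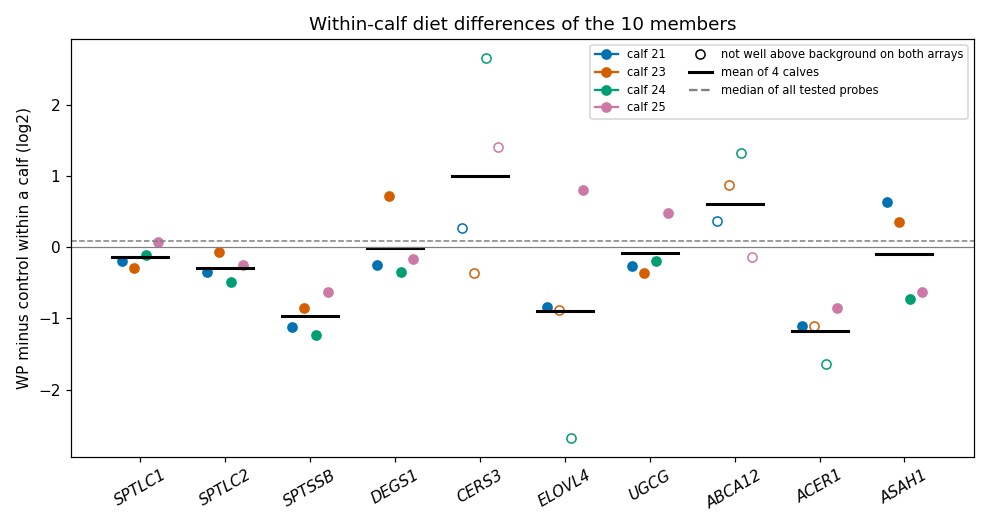
For each member, points give WP minus control within each of the 4 calves (log2), black bars the mean and the dashed line the median of all tested probes, 0.09. Open points are calves in which the probe was not well above background on both arrays. The 4 points of SPTSSB and of ACER1 lie below 0, those of ASAH1 split 2 and 2, and those of CERS3 and ABCA12 are all open.

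**Figure D4:**
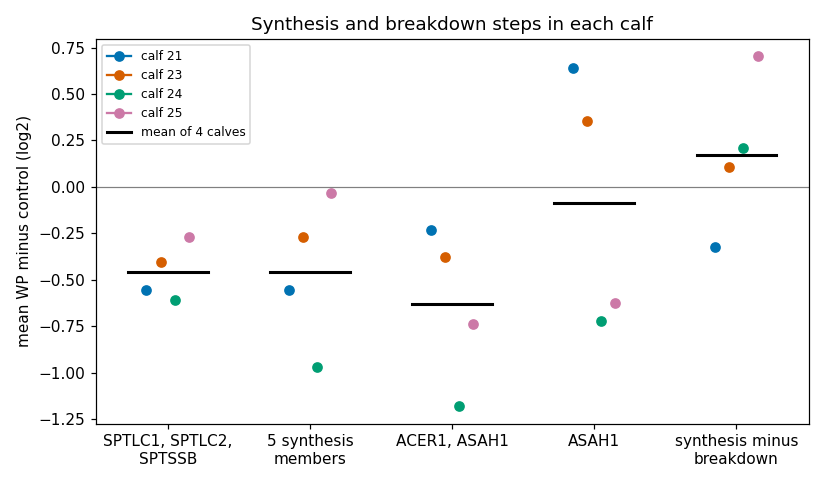
Points give, for each calf, the mean WP minus control difference (log2) over the named members, and black bars the mean of 4 calves. The mean of SPTLC1, SPTLC2 and SPTSSB, without SPTSSA, lies between -0.61 and -0.27, ASAH1 lies on both sides of 0, and synthesis minus breakdown runs from -0.32 to 0.70.

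Differences between the animals, which are balanced over the diets and were not used to choose the set, were tested for the 8 members with a tested probe. In SPTSSB the mean of a calf's 2 arrays was 0.30, 1.11, 0.38 and 1.19 in the order of calf number, a range of 0.89 log2. Calves 21 and 24 lay below calves 23 and 25 on both diets. This did not pass after adjustment (limma F test, unadjusted p = 0.0133, adjusted p = 0.846), and the other 7 had adjusted p from 0.931 to 0.946. At an unadjusted p under 0.05 stood 4.98% of tested probes, and 0.00977% passed the adjusted threshold, a single gene, GSTO1, named after its value was seen. Calf ranges of the other 5 members above background on all 8 arrays ran from 0.37 to 0.49 log2.

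The genes whose levels over the 8 arrays were most like those of each member above background throughout were found among 8847 other probes by Pearson's r, a description over arrays that share calves and diets. LGALS3 (r = 0.97), UBE2E2 (0.96) and FADS6 (0.95) were most like SPTSSB, and LGALS3 had a WP minus control difference of -0.89. RAB11A (0.95), DERA (0.94) and PRKCD (0.93) were most like SPTLC2, and NDFIP2 (0.98) and UBE2B (0.96) were among those most like SPTLC1. LYPD3 (0.97), MAP4 (0.96) and SLC20A2 (0.95) were most like ASAH1. DEGS1 was nearest to SCARA3 (0.96), ABCC1 (0.94) and NUDC (0.93), and UGCG to NFIL3 (0.93), SLC49A4 (0.92) and KDELR2 (0.91). None of these genes was named for more than 1 member. Among the members themselves, SPTSSB was like SPTLC1 (0.73) and SPTLC2 (0.69), while SPTLC1 and SPTLC2 were less like each other (0.20). The r of SPTLC1 with DEGS1 was -0.52 over 8 arrays and 0.57 without the control array of calf 23, so its sign rested on that array.

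The rest of the sphingolipid pathway split evenly between negative and positive differences. Of 63 further genes in 4 lists, 55 had a probe and 48 were tested, 24 with a negative and 24 with a positive difference and a median of 0.0085. Among all tested probes 35.6% were negative, with a median of 0.09. With this scaling negative differences were thus more frequent in these lists than on the array as a whole, which was not tested. With quantile scaling the median of all tested probes was -0.02, so the share on the array depends on the scaling. After adjustment 0 of 48 passed in limma, as did 0% of all tested probes, and 1 had an unadjusted p under 0.05 against 715 of 10236, of which 536 were higher and 179 lower on WP; with quantile scaling these were 192 and 336. In 4 of 4 calves 4 genes (8.33%) were lower, namely ELOVL1, CPTP, KDSR and S1PR2, against 5.39% of tested probes, and 5 (10.4%) were higher, namely ACER2, ELOVL6, CERT1, ORMDL1 and CERS1, against 11.9%.

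In the acylceramide and lipid envelope list 7 of 13 were negative, with a median of -0.046. ELOVL1, an elongase of very long saturated fatty acids, gave signals of 142, 94.5, 146 and 80.3 on the control diet and 51.0, 50.7, 81.8 and 66.7 on WP. The diets overlapped only in that the WP array of calf 24 stood above the control array of calf 25 in signal. Its difference was -0.61 ± 0.24 (SD, n = 4; limma SE 0.14, unadjusted p = 0.00707, adjusted p = 0.658), negative in 4 of 4 calves and not past the threshold. TGM1, which cross-links the cornified envelope, gave -1.03 ± 1.4 (SD, n = 4, limma adjusted p = 0.658). Its difference was -2.59, -1.75, -0.25 and 0.48 in calves 21, 23, 24 and 25, with a mean of -0.51 without calf 21. ELOVL6, an elongase of shorter fatty acids, gave 0.29 ± 0.29 (SD, n = 4, limma adjusted p = 0.659).

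In the de novo synthesis list 5 of 9 were negative, with a median of -0.0072. CERS5, a ceramide synthase, gave -0.27 ± 0.21, KDSR, the reductase that follows serine palmitoyltransferase, -0.17 ± 0.13, and DEGS2, the paralogue of DEGS1, -0.23 ± 0.35 (SD, n = 4), with -0.068 without calf 23. SPTSSA, the small subunit that SPTSSB can replace, gave -0.0072 ± 0.24. None passed (limma adjusted p of 0.658 to 0.991). ORMDL1, ORMDL2 and ORMDL3 are regulators that bind serine palmitoyltransferase. SPTSSA and ORMDL2 had differences near 0, at -0.0072 and -0.012. ORMDL1 gave 0.12 ± 0.098, positive in 4 of 4 calves, and ORMDL3 0.13 ± 0.23 (SD, n = 4). These 2 differences were close in size to that of SPTLC1, -0.13, and of opposite sign.

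In the list of ceramide breakdown and sphingosine phosphate signalling 5 of 10 were negative, with a median of -0.012. ACER2, a Golgi ceramidase, gave 0.47 ± 0.54, positive in 4 of 4 calves (limma adjusted p = 0.658). It was 0.22 without calf 24 and 0.19 with quantile scaling. S1PR1, a sphingosine phosphate receptor, gave 0.69 ± 0.79 (limma adjusted p = 0.658), with 1.5 in calf 23, and -0.10 with quantile scaling. Its signals were low, 7.59 to 18.3 on the control diet and 7.62 to 19.8 on WP, though above background on all 8 arrays. S1PR1 is known from endothelium, and the median of 8 tested endothelial markers in calves 21, 23, 24 and 25 was -0.34, 1.61, 0.062 and 0.53. Their part in the S1PR1 value was not tested. S1PR2, another such receptor, gave -0.28 ± 0.39, and -0.088 without calf 21.

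In the sphingomyelin and glycosphingolipid list 7 of 16 were negative, with a median of 0.10. CERT1, which carries ceramide to the Golgi, gave 0.20 ± 0.079, positive in 4 of 4 calves. CPTP, a transfer protein for phosphorylated ceramide, gave -0.32 ± 0.26 (SD, n = 4). CPTP was negative within each of the 4 calves. Within slide rows, where different calves are compared, it was 0.25 in row 1 and -0.88 in row 2. Both had limma adjusted p of 0.658 or 0.659.

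**Figure D5:**
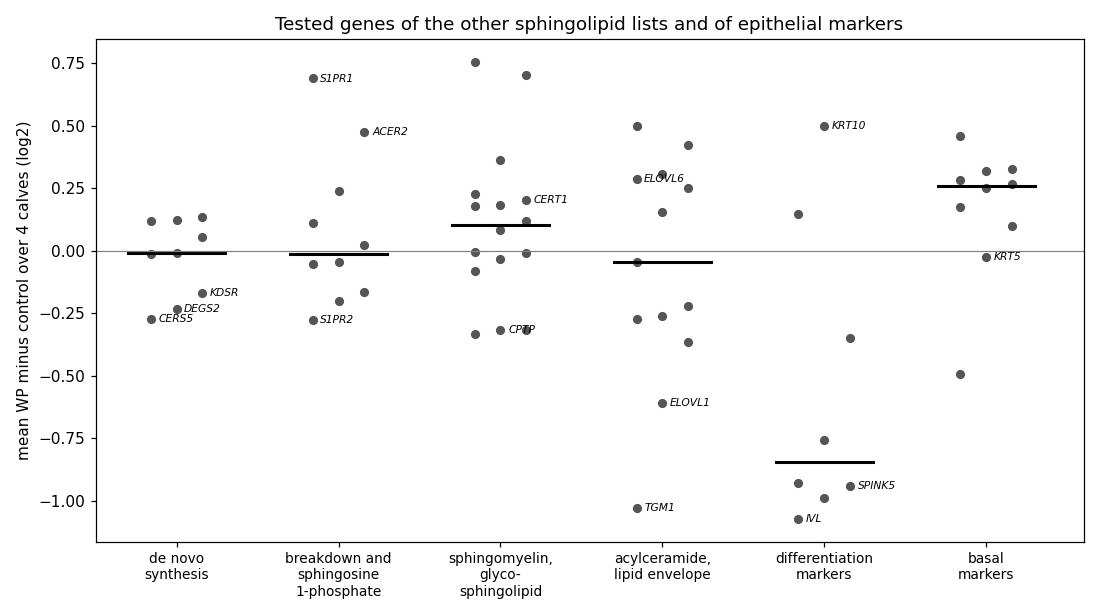
Each point is the mean WP minus control difference of a tested gene over 4 calves (log2), for the 4 further sphingolipid lists and 2 epithelial marker lists, with black bars at the list medians and names on the genes given in the text. The medians of the sphingolipid lists lie between -0.046 and 0.10, that of the differentiation markers at -0.84 and that of the basal markers at 0.26.

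Markers of outer epithelial layers had mostly negative differences beside those of SPTSSB and ACER1, and none passed the test. Of 8 tested differentiation markers 6 were negative, against 35.6% of all tested probes, with a median of -0.84 and medians of -0.61, -0.44, -1.07 and -0.071 in calves 21, 23, 24 and 25. IVL, the envelope precursor involucrin, gave -1.07 ± 0.99, SPINK5, which restrains the proteases of cell shedding, -0.94 ± 0.68, and KRT10, a suprabasal keratin, 0.50 ± 0.48 (SD, n = 4; limma adjusted p = 0.658 each). The list's summed level was 144 to 256 on the control diet and 68.6 to 150 on WP. This sum is mostly that of TGM3, IVL and CST6, whose control means were 5.97, 5.80 and 5.46 log2. KRT10 and KLK5, the 2 positive genes, had control means of -0.94 and -2.58 and hardly enter it. Of 10 basal markers 8 were positive, with a median of 0.26 and the split by calf given beside ASAH1, and KRT5 was 1 of the 2 negative genes at -0.025 ± 0.67. Of the other cell types, the summed level was 13.9 to 52.7 on control and 25.1 to 55.7 on WP for 11 fibroblast genes, 3.97 to 7.20 and 5.20 to 9.63 for 9 endothelial genes, and 5.86 to 9.79 and 7.07 to 10.2 for 6 smooth muscle genes. For 12 leukocyte genes it was 2.17 to 5.31 and 2.43 to 4.4. Differences were positive in 9 of 10 tested fibroblast genes (median 0.64), 8 of 8 endothelial (0.41), 4 of 4 smooth muscle (0.57) and 5 of 7 leukocyte genes (0.14). Most tested probes were likewise positive, as 35.6% were negative. The smooth muscle genes LMOD1 and MYH11 were dim, above background on 4 and 7 arrays. They gave 2.83 and 2.01 in calf 24, whose WP array stood apart, and -1.07 and -0.74 in calf 25. The calves were not uniform. List medians were negative in calf 21 for fibroblast (-0.75), endothelial (-0.34) and leukocyte genes (-0.59). For smooth muscle genes the median was negative in calf 25 (-0.37). In the other calves these medians were positive. COL1A1, the negative fibroblast gene, gave -0.0065 ± 0.31, PECAM1 0.62 ± 1.13 and PTPRC 0.46 ± 1.33 (SD, n = 4). CDH5, MS4A1 and ITGAM were above background on none of the 8 arrays. The part of these cell types in the values of the members was not tested.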

How the data were processed

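RNA of 8 rumen epithelium samples was measured on 1-colour arrays of design 072598, from 500 ng of total RNA each per the labels. The deposited scanner files hold spot intensity, with a processed signal the software had already corrected for background, and other columns with flags. Per the file headers the software was Feature Extraction 11.0.1.1, whereas the submitters' processing notes name 9.5. In the value table deposited by the authors, on a log2 scale, each column was log2 of the processed signal minus a constant per array (slopes of 1.00), with medians from -3.07 to -2.26. It served as an alternative.

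Here log2 processed signal was scaled by each array's 75th percentile, after leaving out 536 control spots and 97 flagged outlier spots. Testing covered the 10236 of 15008 probes flagged well above background on 4 or more arrays, with limma 3.58.1 in R 4.3.3 (lmFit, eBayes, two-sided, Benjamini-Hochberg over all probes, threshold 0.05), with calf as a block. The pairing comes from the labels, and the expression values gave little sign of it. The r between the deviations of a calf's 2 arrays from their diet means was 0.00897, 0.20, 0.060 and 0.048 for calves 21, 23, 24 and 25. A calf's 2 arrays lay in different slide rows, so a difference between rows would lower this r. Differences between calves (F test) and slide rows came from the same values. The detection limit of an array is its lowest signal well above background. No spot was saturated, and the number of arrays limits the precision.

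Probes were named by RefSeq accession (11194), symbol (3085), older symbol (38) or the array design (691). Members and lists were chosen with earlier results of these data known. Named genes were all members, the 3 tested genes of smallest diet p in each pathway list and any past a threshold, the 3 most alike each member over 8 arrays and 7 marker checks, leaving out LOC names; 2 genes that the rule names are not reported here. SPTSSA, ORMDL1, ORMDL2, ORMDL3 and CERS1 were named after their values were seen.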

Additional observations from a re-analysis of the deposited data

Results flagged for a closer look

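Among the 20 groups of 4 arrays formed by 10 members and 2 diets, 2 held an array far from the rest, where chance gives about 1 in 20. SPTLC2 on the WP diet was 1.04 in calf 24, below 1.47 to 1.54 in the other 3 calves. DEGS1 on the control diet was -0.22 in calf 23, below 0.59 to 0.72 in the others. Levels are log2 relative to the array's 75th percentile. No explanation was tested for either value.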

How the results depend on the processing

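Diet gave 0 probes past the adjusted threshold under each of 13 alternatives, the fit with no replicate block included (range of the smallest adjusted p, 0.346 to 0.844). Between calves 1 probe passed, against 20 with normexp background correction, 2 with probes well above background on all 8 arrays and 0 with no filter on dim probes. Between slide rows 0 passed, and 92 with normexp, where ASAH1 had an adjusted p of 0.0898. Quantile scaling moved the median of all tested probes from 0.09 to -0.02. Relative to that median SPTSSB ran from -1.18 to -0.92 over 12 alternatives, SPTLC2 from -0.57 to -0.16 and SPTLC1 from -0.32 to -0.12, while ACER1 ran from -1.75 to -0.18. DEGS1 changed sign in 5 of 12, and ELOVL4, UGCG and ASAH1 in 2 each, as did CERS3, from which no difference is read. Without calf 24 ELOVL4 was -0.31 and ASAH1 0.12. Averaging all probes of a gene changed nothing, as each member has 1. Synthesis minus breakdown ran from -0.0021 without calf 25 to 0.34 without calf 21, and was -0.15 with normexp and -0.26 over members above background on all 8 arrays. S1PR1 turned to -0.10 with quantile scaling. Within slide row 1 CPTP was 0.25, KRT10 -0.38 and KRT5 0.15, and within row 2 COL1A1 was 0.051 and PTPRC -0.089. These within-row values compare different calves on the 2 diets, without the pairing. With 1 calf left out, KRT5 ran from -0.23 to 0.18 and COL1A1 from -0.16 to 0.082. Averaging only calves with both arrays above background, setting dim ACER1 arrays at their limit, adding SPTSSA, keeping members above background throughout and leaving 1 array out of r were chosen after seeing the data.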
